A study of Mus musculus with 6 samples.

Results

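The genes described here encode the proteins of the cytosolic ribosome, and their mRNA was measured by RNA-seq in the tailbud of mouse embryos. They were chosen by name: every symbol made of Rpl or Rps, a number and at most one of the letters a, x or l, together with Rplp0, Rplp1, Rplp2 and Rpsa. The rule found 80 genes among 35542, of which 31 encode proteins of the small (40S) subunit and 49 proteins of the large (60S) subunit. Of these 80 genes, 77 had enough reads to be tested, namely all 31 of the small subunit and 46 of the large subunit. The filter asked for the depth of 10 reads in a library of median size in at least 3 libraries, and it also left 14122 autosomal and X-linked genes in all.

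The study compared 3 WT embryos (*Smchd1* +/+) with 3 that carried *MommeD43* on both alleles (*Smchd1* MommeD43/MommeD43). *MommeD43* is a point mutation made with the mutagen ENU in *Smchd1*, the gene of a chromatin protein that silences the inactive X chromosome and gene clusters. All embryos were of the FVB/NJ strain and had 8 somites, and each library came from the tailbud of 1 embryo, the tissue that holds the presomitic mesoderm (PSM) from which somites form. Each group had 1 male (replicate 1) and 2 females (replicates 2 and 3). By the labels the males shared a mother while no female shared hers, so sex and mother cannot be told apart for the males. One label field names neural stem cells in place of tailbud, and the tissue field and titles were followed. As the allele is a point mutation, the level of *Smchd1* mRNA does not check the genotype.

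A ribosome carries 1 copy of nearly every ribosomal protein, and cells keep the amounts of these proteins in proportion, so their genes are commonly expressed together and at high levels. Mouse ribosomal protein mRNAs typically begin with a C followed by a run of pyrimidines, the 5′ terminal oligopyrimidine (TOP) motif, through which mTORC1 and LARP1 control their translation. Loss of a single copy of some ribosomal protein genes causes Diamond-Blackfan anaemia in humans, and in mice loss of *Rpl38* in the Tail short mutant alters the identity of vertebrae and reduces translation of a subset of *Hox* mRNAs.

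The TOP motif lies at the start of the RNA, so a few starts are shown for genes whose values are given further on. The windows shown hold such a run in a larger share than the listed starts of the family, which are counted below. Each window runs from 15 bases before the start to 15 bases from it on the gene's own strand, taken from RefSeq starts on GRCm38.p6. Capitals mark the unbroken run of C and T from the first base of the RNA, where that base is a C followed by at least 4 pyrimidines. The first window belongs to the gene of the Tail short mutant, and the next 4 to genes with some of the smallest p-values or lowest levels.
Rpl38 (chr11:114668565-114668594, plus strand): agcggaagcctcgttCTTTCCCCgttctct
Rpl15 (chr14:18270972-18271001, minus strand): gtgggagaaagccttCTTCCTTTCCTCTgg
Rpl35 (chr2:39005117-39005146, minus strand): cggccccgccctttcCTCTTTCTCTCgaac
Rps10 (chr17:27635230-27635259, minus strand): gcgccgcgcacgcccCTTCCTTTCCagcct
Rpl35a (chr16:33056467-33056496, plus strand): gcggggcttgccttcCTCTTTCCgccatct
RefSeq lists 2 other starts of *Rpl35a*, neither with such a run. For contrast, the listed starts of an X-linked gene and of the gene of the Belly spot and tail mutant hold no such run.
Rps4x (chrX:102189377-102189406, minus strand): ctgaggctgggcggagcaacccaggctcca
Rpl24 (chr16:55966260-55966289, plus strand): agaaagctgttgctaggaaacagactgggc

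The promoter table held 72 starts of 60 ribosomal protein genes. Of these starts, 13 (18.1%) began with a C followed by at least 4 pyrimidines, against 2.51% of 32851 starts of all genes in that table. Within the stretch from 20 bases before the start to 30 bases after it, the letters CTTTCC, which can lie inside the pyrimidine run, stood on the gene's own strand in 16.7% of the 72 starts, against 2.40% of all. The letters CTTCCG, searched in the same way, stood in 9.72% of the 72 starts and in 2.79% of all. Over the 300 bases from 250 before the start to 50 after it, CCGGAAG, whose reverse complement holds CTTCCG, was found on either strand in 36.1% of ribosomal protein starts and in 8.86% of all starts. AAGATGG on either strand was found in 15.3% and 6.34%, and TATAAA in 8.33% and 13.6%. The starts are those of the annotation, which need not be the first base used in the tailbud, and a match is only a match of letters.

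Depth and tissue were read from the same table. Whole reads were recovered from the values (97.3% of values between 0 and 100 reads came out whole within 0.02), and library totals ranged from 10957916 to 47298348 reads. The level of *Smchd1* was 8.07 ± 0.672 RPKM in WT and 7.58 ± 0.400 in MommeD43 (reads per length of merged exons and library size, mean ± SD, n = 3 each). All 10 markers of PSM and tailbud (among them *T*, *Tbx6* and *Msgn1*) were detected, with a summed level of 569 to 765 RPKM per library. Summed markers of primitive blood ranged from 8.92 to 484 RPKM and those of yolk sac endoderm from 38.3 to 447 RPKM, with spans of 8.92 to 484 and 142 to 288 in WT and of 22.6 to 220 and 38.3 to 447 in MommeD43, and no marker of either list was without reads in all libraries. Markers of endothelium (19.4 to 34.8 RPKM), neural tube (0.395 to 1.05) and decidua and trophoblast (1.31 to 17.4) were low. In bulk tissue, fewer cells of a type and less RNA per cell cannot be told apart. Recovered reads of no library pair agreed within sampling noise over the ribosomal protein genes (mean chi-square per gene 6.24 to 24.2).

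Ribosomal protein genes were among the most highly expressed genes of the tailbud. The median of the 77 tested was 299.6 RPKM, and the median of all 14122 genes was 5.26 RPKM. Of the 77 genes, 71 were above 100 RPKM and 74 were among the 500 genes with the highest mean. Together they took 4.92%, 4.83% and 4.80% of all reads in WT replicates 1 to 3, and 4.81%, 4.98% and 5.41% in MommeD43 replicates 1 to 3. The last share stood apart from the other 5, with an exact 95% interval of 5.40 to 5.42% that covers counting error only.

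The highest level was that of *Rplp1*, an acidic protein of the stalk that recruits translation factors. Its level was 2797, 2727 and 2528 RPKM in WT and 2636, 2720 and 3113 RPKM in MommeD43, so the MommeD43 libraries held the top value and otherwise lay within the WT range. *Rps15*, of the small subunit head, followed with 1330, 1341 and 1288 RPKM in WT and 1265, 1371 and 1495 RPKM in MommeD43. *Rplp0*, which anchors the stalk, lay between 1200 and 1257 RPKM in WT and between 1215 and 1389 RPKM in MommeD43. *Rplp0* is often taken as a reference gene, and the groups overlapped. *Rpl4* (1151 to 1170 RPKM in WT, 1132 to 1246 RPKM in MommeD43) and *Rpl8* (979 to 1023 and 1003 to 1130 RPKM), core proteins of the large subunit, completed the 5 highest. *Rplp1* was above every other member in every library, and *Rps15* was above *Rplp0* in each of the 6, although the ranges of the latter pair over all libraries overlapped.

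**Figure D1:**
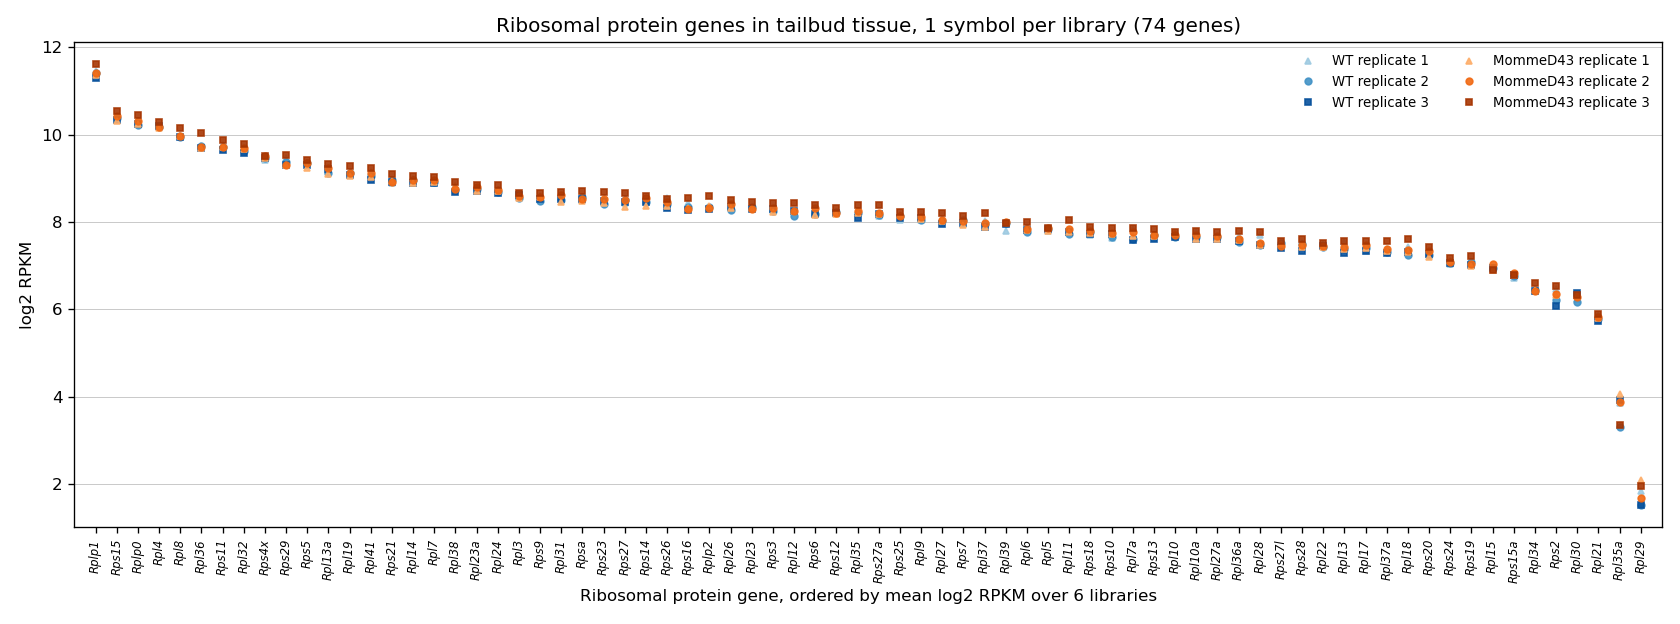
Level of 74 of the ribosomal protein genes tested (horizontal axis, ordered by mean) in each of the 6 libraries (vertical axis, log2 RPKM, 1 symbol per library, blue for WT and orange for MommeD43, triangles for males). Rplp1 stands above the rest, levels fall gradually from Rps15 to Rpl21, and Rpl35a and Rpl29 stand apart at the low end. MommeD43 replicate 3 (dark orange squares) tops most genes.

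At the other end, 3 members that are paralogues of other members were near or at 0. *Rpl10l*, known as the testis copy of *Rpl10*, had 0 reads in all 6 libraries, each of which allows up to 3 reads, or 0.0620 to 0.268 RPKM. Its X-linked parent *Rpl10* had 62828 reads in all, and its level per length was at least 10436-fold higher, taking 3 reads over the 6 libraries as the limit for *Rpl10l*. *Rpl3l*, the striated muscle copy of *Rpl3*, had 1 read, in MommeD43 replicate 2, against 181361 reads of *Rpl3* in all. *Rpl39l* had 4, 3 and 0 reads in WT and 3, 15 and 0 reads in MommeD43. Only MommeD43 replicate 2 was well above the limit of 3 reads (0.382 RPKM, where the limit is 0.0763 RPKM). The other libraries of both groups were near or below it. Summed over libraries and per exon length, *Rpl39* was 1212-fold above *Rpl39l*. These 3 genes were not tested.

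Ratios of paralogues expressed in the tailbud were compared within each library. *Rps27* was 1.99-fold above *Rps27l* on average, and 1.79 to 2.12-fold in single libraries. *Rpl22* exceeded *Rpl22l1* by 1.61-fold, with single libraries from 1.38 to 1.89, the widest relative span of the 4 pairs. *Rpl7* stood 6.77-fold above *Rpl7l1*, a protein of early large subunit assembly (6.49 to 6.98), and *Rpl36a* stood 3.87-fold above its autosomal copy *Rpl36al* (3.53 to 4.10). Ratios of near-identical copies depend on how reads shared between them were placed. They also depend on the length used, here that of the merged exons of all transcripts. Over the principal transcript, treated below, the mean level was 1084 RPKM for *Rps27* and 294 RPKM for *Rps27l*, a larger ratio than in any library above.

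**Figure D2:**
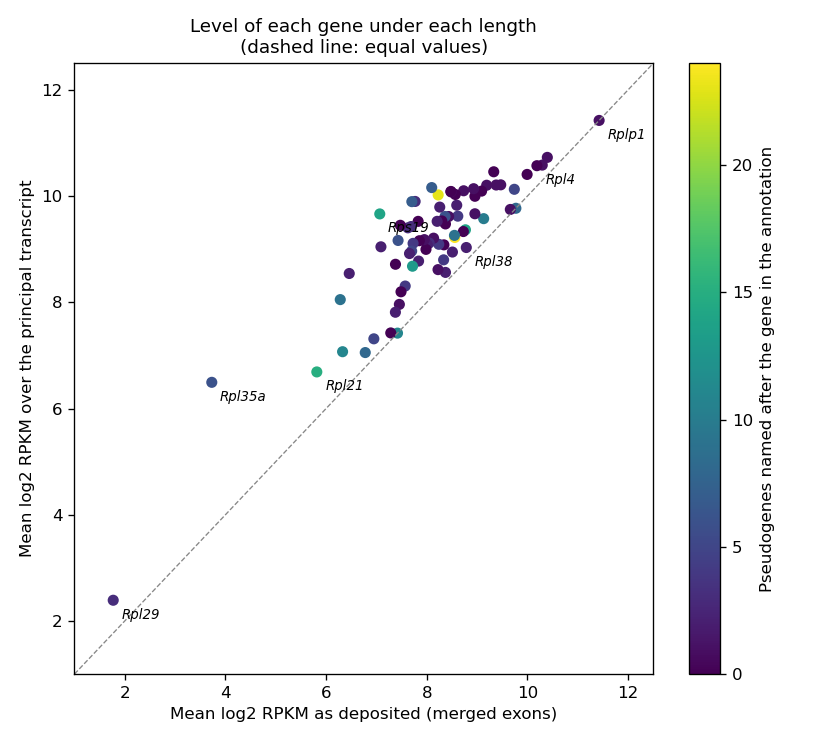
Mean level of each tested ribosomal protein gene as deposited, per length of merged exons (horizontal axis, log2 RPKM), against the level per length of its principal transcript (vertical axis, log2 RPKM), coloured by the number of pseudogenes named after it. The median rose from 8.23 to 9.36, and Rpl35a and Rps19 lie farthest above the line of equal values.

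A level per length depends on which length is used, and for these short genes the choice mattered. The deposited values divide by the merged exons of all transcripts, whose length was 2.02 times that of the principal transcript in the median (1 to 6.79 times). With the principal transcript in their place, a calculation added after seeing the data, the median level was 9.36 rather than 8.23 on the log2 scale, and the SD between genes was 1.24 rather than 1.34. The order of the 77 genes was partly kept (Spearman's rho 0.79 over genes, which share libraries and are no replicates). *Rplp1*, *Rps15*, *Rplp0* and *Rpl4* stayed in places 1 to 4. *Rps19*, in contrast, went from place 69 to place 27, since its merged exons span 4685 bases and its principal transcript 774.

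Processed pseudogenes are a known difficulty for this family. In the annotation, 59 of the 77 genes had at least 1 pseudogene named after them and 18 had none, with 291 in all and the most, 24, for *Rpl31*. Pseudogenes under other symbols were not counted, so the 18 genes need not be free of them. Across genes, the level per principal transcript was lower where more pseudogenes were named (rho −0.31). Reads shared with pseudogenes could have been left out or split, and their part in the levels was not tested. Exons shared with another gene on the same strand made up 47.0% of *Rpl24*, 35.4% of *Rpl13a* and 20.6% of *Rps10*, so these levels are uncertain. *Rpl35* shared 66.2% and *Rpl23a* 59.7% of exon bases with genes on the other strand, and the library kit kept strand, but the strand setting of the quantification is not given in the sources used here.

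Between embryos the ribosomal protein genes varied little and varied together. The SD over the 6 libraries was 0.080 on the log2 scale in the median of the 77 genes, and 0.141 in the median of all genes tested. The median level of all genes was only 5.26 RPKM, where counting noise weighs more on the SD, and no comparison at equal level was made. After the median deviation of each library was subtracted, the SD of the median ribosomal protein gene was 0.043, and 73 of 77 genes were under 0.1. In the shallowest library the median gene of the 77 had 5912 reads, for which counting alone gives an SE of 0.019. A single component took 64.0% of the variance of these genes over the libraries.

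The shared movement was mostly that of 1 library. The deviation of a gene is its log2 RPKM in a library minus its mean over the 6 libraries. The median deviation of the 77 genes was −0.0087, −0.034 and −0.050 in WT replicates 1 to 3 and −0.042, 0.0028 and 0.134 in MommeD43 replicates 1 to 3. MommeD43 replicate 3, a female, was thus the only library far above the rest, and both subunits moved there alike, with medians of 0.138 for the small and 0.133 for the large subunit. It was the highest library for 68 of the 77 genes (88.3%), where the same library was highest for 22.3% of all genes tested.

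Other short genes stood high in the same library. A comparison chosen after these values were seen took the 476 other tested genes whose principal transcript was at most 878 bases, the median of the ribosomal protein genes. Their median deviation in MommeD43 replicate 3 was 0.114, and it was the highest library for 48.1% of them. For the 12653 other genes with a longer principal transcript, the median there was 0.0069. Of the ribosomal protein genes tested, 39 were at or below the limit, and the longer ones were not compared as a set. All longer ones except *Rpl15* were above their own mean in MommeD43 replicate 3. The longest, *Rps15a* (5179 bases), *Rps20* (3706 bases) and *Rpl18* (2989 bases), deviated there by 0.013, 0.131 and 0.232. Among the ribosomal protein genes with a C and pyrimidine start, as in the windows of *Rpl38* and *Rps10* above, the median deviation in that library was 0.138 (13 genes), and among the others in the promoter table it was 0.135 (44 genes). As annotated starts need not be those used, the others can include TOP mRNAs, so no conclusion about the motif is drawn from this split. The part of transcript length in the result was not tested further. MommeD43 replicate 3 also had the lowest summed yolk sac markers (38.3 RPKM) and low blood markers (22.6 RPKM), whose part was not tested either.

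**Figure D3:**
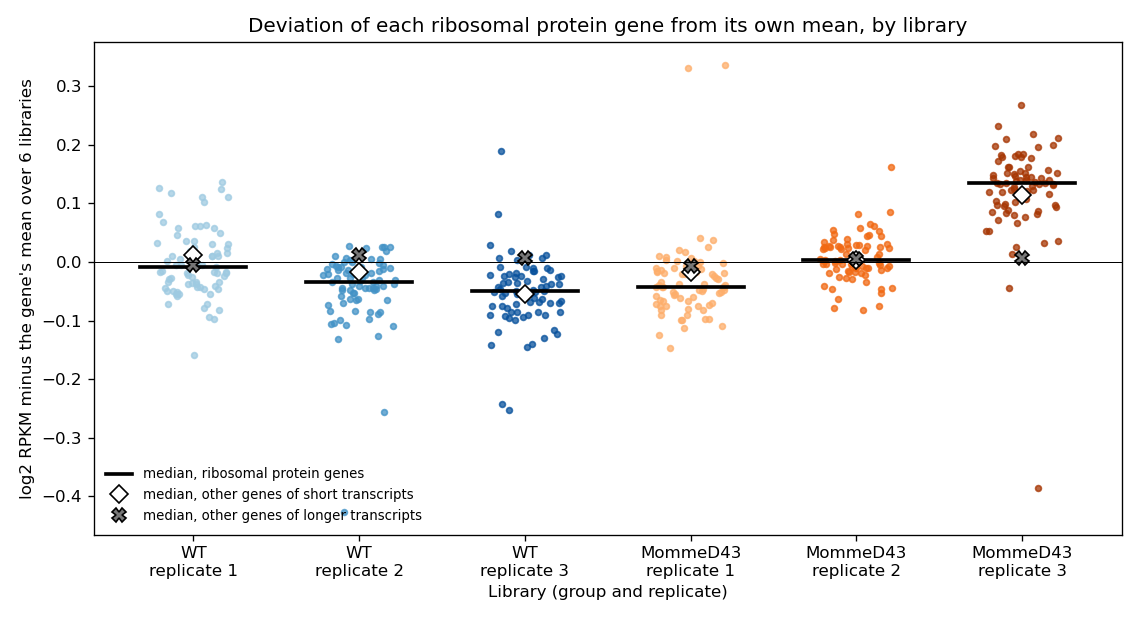
Deviation of each of the 77 ribosomal protein genes from its own mean (vertical axis, log2) in each library (horizontal axis), with the median of these genes as a bar, of 476 other genes with short transcripts as a diamond and of 12653 genes with longer transcripts as a cross. In MommeD43 replicate 3 the bar is at 0.134 and the diamond at 0.114, while the cross is near 0 in every library.

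The comparison of MommeD43 with WT asks whether the mutation changes these mRNAs in the tissue that forms the vertebral column. No ribosomal protein gene passed the test between genotypes. With limma, adjusted by the Benjamini-Hochberg method over 14122 genes, 0 of 77 passed an adjusted p of 0.05, and 0 of 14122 genes did (0%). At an unadjusted p under 0.05 there were again 0 of 77, where 341 of all genes (2.41%) were under it. With voom and sample quality weights on recovered reads, 0 of 77 passed after adjustment and 5 had an unadjusted p under 0.05, of 816 among all genes. The largest log2 fold change was 0.29 (*Rpl29*), and the median SE was 0.064.

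Means were nevertheless higher in MommeD43 for nearly all of these genes. The log2 fold change was above 0 for 74 of 77 (96.1%), against 50.9% of all genes. Its median was 0.065, a 1.05-fold difference, with quartiles of 0.041 and 0.085, and the median over all genes was 0.0021. Of the 476 other short genes, 65.1% were higher in MommeD43, with a median log2 fold change of 0.045. The medians of the subunits were 0.057 (small) and 0.071 (large). As these genes moved together from embryo to embryo, their directions are not separate observations. Without MommeD43 replicate 3, the median was 0.0099 and 49 of 77 were higher, against 49.1% of all genes.

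**Figure D4:**
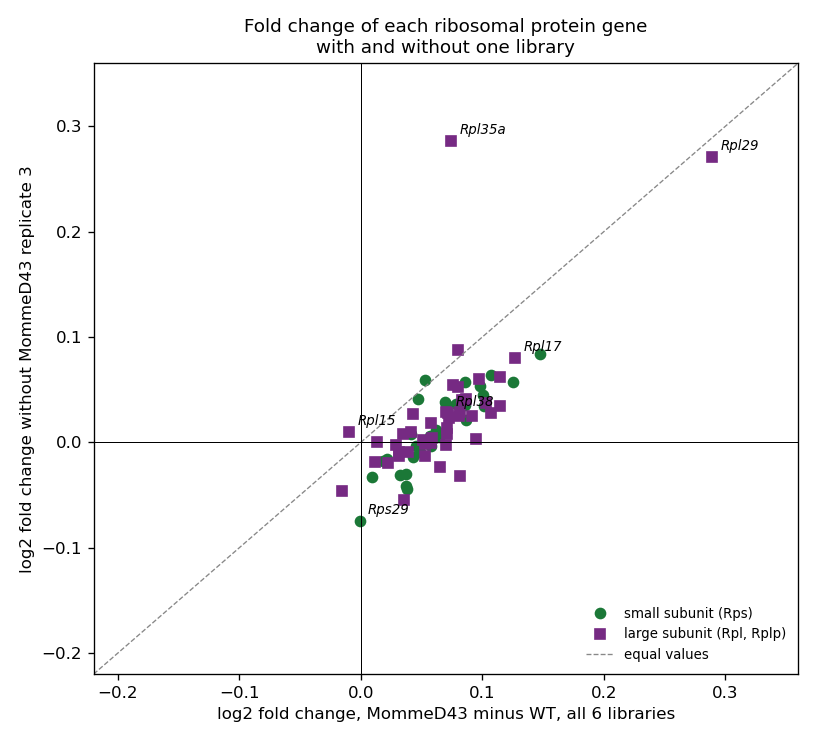
Log2 fold change of MommeD43 over WT for each of the 77 ribosomal protein genes with all 6 libraries (horizontal axis) and without MommeD43 replicate 3 (vertical axis), circles for the small and squares for the large subunit. With all libraries 74 genes lie right of 0, and without that library 49 lie above 0. Most points are below the dashed line of equal values and Rpl35a is far above it.

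*Rpl38* was measured at 452, 428 and 412 RPKM in WT and at 449, 429 and 480 RPKM in MommeD43. The groups overlapped, and only MommeD43 replicate 3 was above the WT range. The log2 fold change was 0.072 ± 0.063 (SE, limma unadjusted p = 0.290, adjusted p = 0.9995), 0.028 ± 0.059 without MommeD43 replicate 3 and 0.012 ± 0.056 after quantile normalization.

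Of the genes with a higher mean in MommeD43, *Rpl17* of the large subunit had the smallest p. Its levels were 160, 169 and 162 RPKM in WT and 170, 177 and 191 RPKM in MommeD43, every MommeD43 library being above every WT library by a narrow margin. The log2 fold change was 0.13 ± 0.057 (limma unadjusted p = 0.0575, adjusted p = 0.9995), and 0.081 ± 0.052 without MommeD43 replicate 3. *Rps10*, of the small subunit (198, 202 and 213 RPKM in WT, 212, 215 and 233 RPKM in MommeD43) and *Rpl35*, of the large subunit (296, 293 and 273 against 295, 305 and 334 RPKM) had log2 fold changes of 0.11 ± 0.057 and 0.11 ± 0.064. Their groups overlapped by 1 library, and without MommeD43 replicate 3 the values were 0.064 ± 0.053 and 0.063 ± 0.056.

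*Rpl29*, a large subunit protein also known to bind heparin, had the largest fold change and the fewest reads of the genes tested. It had 147, 76 and 54 reads in WT and 53, 172 and 57 reads in MommeD43, which is 3.57, 2.86 and 2.89 RPKM against 4.30, 3.23 and 3.87 RPKM. The male of each group was the highest of its group, and the groups overlapped. The log2 fold change was 0.29 ± 0.15 (limma unadjusted p = 0.0817, adjusted p = 0.9995), and the 95% counting intervals of WT replicate 1 (3.01 to 4.19 RPKM) and MommeD43 replicate 1 (3.22 to 5.62 RPKM) overlapped as well.

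Lower means in MommeD43 were limited to 3 genes, all by less than their SE. For *Rpl15*, one of the larger proteins of the 60S subunit, the values were 126, 124 and 123 RPKM in WT against 119, 131 and 120 RPKM in MommeD43 (log2 fold change −0.0098 ± 0.054). For *Rps29* they were 705, 660 and 635 RPKM against 635, 629 and 737 RPKM, a difference of −0.0010 ± 0.078. For both genes the WT libraries lay within the range of MommeD43.

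Every MommeD43 library was above every WT library for 10 of the 77 genes (13.0%), where 3.53% of all genes were so. Of the 476 other short genes, 7.77% were so. Every MommeD43 library was below every WT library for 0 of 77, against 3.54% of all genes. Among the 10, named after their values were seen, were *Rpl7*, *Rpl10*, *Rpl17*, *Rpl32*, *Rps4x*, *Rps24*, *Rps25* and *Rps27a*. As the 77 genes share their library deviations, these 10 are not separate observations. Without MommeD43 replicate 3 the corresponding counts were 11 of 77 (14.3%) and 6.64% of all genes, without WT replicate 1 they were 25 of 77 and 13.0% of all genes, and without MommeD43 replicate 1 they were 31 of 77 and 9.35%.

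Genes mutated in Diamond-Blackfan anaemia or in mice with skeletal or tail defects gave no difference past the test. *Rps19*, the gene most often mutated in that anaemia, had 133, 135 and 130 RPKM in WT and 127, 132 and 148 RPKM in MommeD43 (log2 fold change 0.033 ± 0.064). *Rpl5* and *Rpl11*, which bind MDM2 as part of the 5S particle, had fold changes of 0.013 ± 0.048 and 0.12 ± 0.076 on the log2 scale. *Rpl5* was the steadiest of this group, at 223 to 230 RPKM in WT and 222 to 234 RPKM in MommeD43. *Rpl11* was at 211 to 224 RPKM in WT and at 217 and 231 RPKM in MommeD43 replicates 1 and 2, and reached 265 RPKM in replicate 3. *Rps26* (0.021 ± 0.073), *Rps7* (0.043 ± 0.064) and *Rpl24*, the gene of Belly spot and tail (0.070 ± 0.057), had overlapping groups. *Rps24* had 132, 133 and 134 RPKM in WT and 137, 136 and 146 RPKM in MommeD43, so its groups did not overlap, with a log2 fold change of 0.070 ± 0.048.

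*Rpl35a* varied most between embryos once the library medians were removed, and with *Rpl15* it was 1 of 2 genes below their own mean in MommeD43 replicate 3. Its levels were 14.5, 9.86 and 15.1 RPKM in WT and 16.7, 14.8 and 10.1 RPKM in MommeD43, from 468 to 2473 reads. WT replicate 2 and MommeD43 replicate 3 were low, and their 95% counting intervals (9.19 to 10.6 and 9.24 to 11.1 RPKM) did not reach those of the other 4 libraries, which began at 13.8 RPKM. The SD after removal of the library medians was 0.37 on the log2 scale, and the next largest were 0.22 for *Rpl29*, 0.12 for *Rps2* and 0.10 for *Rpl39*. Both low libraries were female, and the fold change between genotypes was 0.075 ± 0.21, or 0.29 ± 0.18 without MommeD43 replicate 3. Merged exons of *Rpl35a* span 3526 bases and its principal transcript 519, so the value may include reads outside the usual mRNA, which the table cannot separate.

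As 4 members are X-linked and females carry a second X chromosome, sex was compared in a fit with genotype. By limma, 0 of 77 genes differed between females and males at an adjusted p under 0.05, where 1 of 14122 genes did (0.00708%). At an unadjusted p under 0.05, 1 of 77 differed against 8.16% of all genes. That gene was *Rpl29*, lower in females by 0.30 ± 0.12 on the log2 scale (unadjusted p = 0.0383, limma adjusted p = 0.594). Of the X-linked members, *Rpl39* had 222 RPKM in the WT male and 249.5 to 257 RPKM in the other 5 libraries, and *Rps4x* was at 688 to 703 RPKM in WT and at 704 to 731 RPKM in MommeD43. Female minus male differences on the log2 scale were 0.089 ± 0.060 for *Rpl39*, 0.040 ± 0.057 for *Rps4x*, −0.0079 ± 0.052 for *Rpl10* and −0.0031 ± 0.078 for *Rpl36a*. *Rps4x* has a Y-linked counterpart in humans but not in mice.

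Genotype differences of these genes mostly pointed opposite ways in males and females. Between the females, MommeD43 was higher for 77 of 77 genes (51.5% of all genes), with a median log2 fold change of 0.11. Between the males it was higher for 22 of 77, with a median of −0.037. The interaction of sex and genotype had a median of −0.15 over the 77 genes and of −0.012 over all genes, and was negative for 72 of 77. Shares over all genes were not computed for the male pair or for a negative interaction. As the 77 genes moved together from embryo to embryo, these counts are not separate observations. Tested gene by gene with limma, 0 of 77 interactions passed an adjusted p of 0.05, where 35 of 14122 genes did (0.248%). At an unadjusted p under 0.05 there were 6 of 77, against 11% of all genes. The smallest p was that of *Rpl7a*, at 195 and 191 RPKM in WT females, 217 and 231 RPKM in MommeD43 females, 228 RPKM in the WT male and 204 RPKM in the MommeD43 male (interaction −0.38 ± 0.11, unadjusted p = 0.0099, limma adjusted p = 0.296). One male per genotype stands behind each of these values, so the spread in this test comes from the females alone, and MommeD43 replicate 3 is one of the 2 MommeD43 females.

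Lists of related genes were set beside the ribosomal protein genes, and their counts of higher means are read against the 50.9% of all genes. Of 8 genes of the ribosome that the name rule leaves out, such as *Rps3a1*, *Fau* and *Rack1*, 0 passed the limma test in either direction, 6 of 8 were higher in MommeD43 and the median log2 fold change was 0.022. Genes of ribosome biogenesis were higher in 26 of 34 with a median of 0.029, and *Ltv1*, an assembly factor of the small subunit, had the smallest p (log2 fold change 0.12 ± 0.065). Translation factors were higher in 24 of 34 with a median of 0.028, with the smallest p for *Eif2s2*, a subunit of eIF2 (0.099 ± 0.055). Other mRNAs known for a TOP start were higher in 5 of 7 with a median of 0.033, and *Btf3* had the smallest p (0.085 ± 0.057). In all of these lists 0 genes passed the test. Without MommeD43 replicate 3, 3 of the 8 genes outside the name rule were higher (median −0.018), against 49.1% of all genes. The counts were then 23 of 34 for biogenesis (0.025), 23 of 34 for translation factors (0.020) and 6 of 7 for other TOP mRNAs (0.047).

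Mitochondrial ribosomal proteins, which belong to a separate ribosome, were also measured. Of 77 tested, 0 passed the test, 4 had an unadjusted p under 0.05 (2.41% of all genes did), 66 were higher in MommeD43 (50.9% of all genes) and the median log2 fold change was 0.069. Their median deviation in MommeD43 replicate 3 was 0.133, beside 0.134 for the cytosolic genes. Without that library 51 of 77 were higher and the median log2 fold change was 0.030, beside 0.0099 for the cytosolic genes, and the difference between the lists was not tested. *Mrpl54* had the smallest p, with 48.8, 45.8 and 42.1 RPKM in WT and 48.6, 51.7 and 60.5 RPKM in MommeD43 (0.23 ± 0.090).

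Targets of p53 were included because unassembled RPL5 and RPL11 are known to stabilise p53. Of 16 such targets, 0 passed, 13 were higher in MommeD43 and the median log2 fold change was 0.062. Without MommeD43 replicate 3, 9 of the 16 were higher and the median was 0.022. *Bbc3*, which encodes the pro-apoptotic protein PUMA, had the smallest p of this list, at 1.94, 2.29 and 1.87 RPKM in WT and 3.05, 2.78 and 2.81 RPKM in MommeD43. Its groups did not overlap, with a log2 fold change of 0.50 ± 0.13 (limma unadjusted p = 0.00446, adjusted p = 0.9995). *Cdkn1a* (−0.076 ± 0.15), *Mdm2* (0.072 ± 0.082) and *Ccng1* (−0.017 ± 0.15), named after their values were seen as widely used targets, had differences below their SE. For Myc and mTORC1 genes 0 of 14 passed and 9 were higher, with a median of 0.015 and the smallest p for *Akt1s1*, an mTORC1 component (0.14 ± 0.084).

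**Figure D5:**
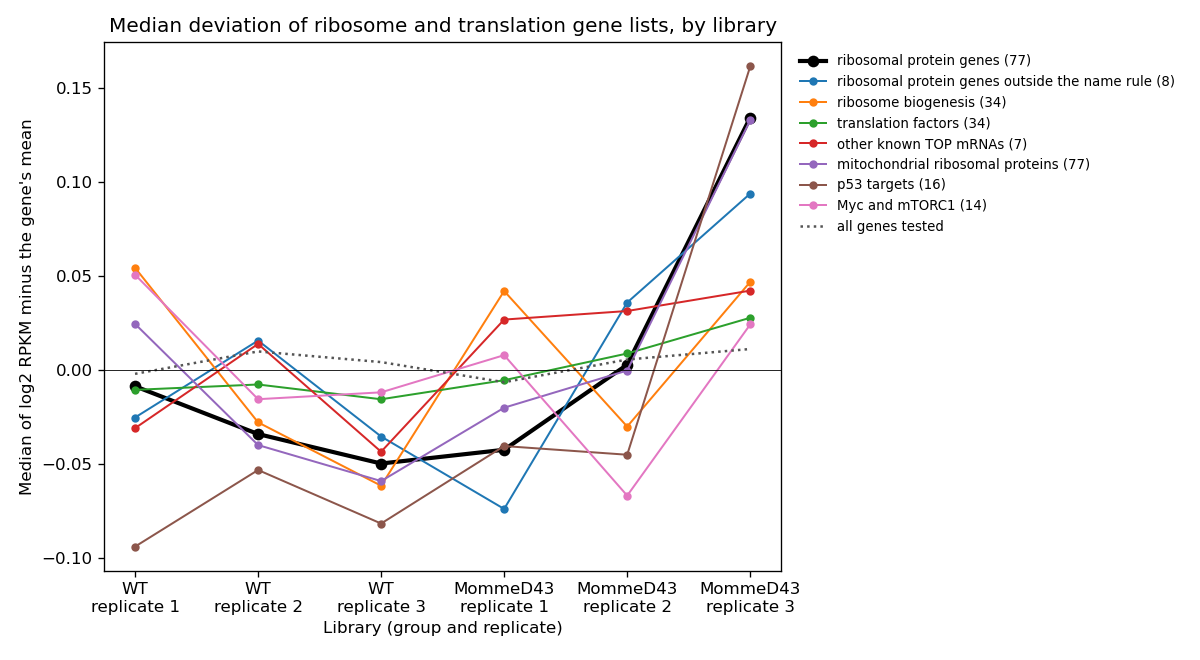
Median deviation from the gene mean (vertical axis, log2) in each library (horizontal axis) for the cytosolic ribosomal protein genes (black), the 7 other lists (colours, number of tested genes in brackets) and all genes tested (dotted). In MommeD43 replicate 3 the lists lie between 0.024 and 0.161, with the p53 targets and both kinds of ribosomal protein at the top.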

How the data were processed

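RNA of 6 tailbuds was sequenced with a stranded mRNA kit as single-end reads of 75 bases. According to the methods, reads were trimmed with Trim Galore 0.4.4, mapped with HISAT2 2.0.5 to GRCm38.p6 and quantified with SeqMonk. The deposited values are log2 RPKM that the authors made from reads per gene, library size and exon length. Pooled columns of group means were not used. Of 35591 table entries, 35555 matched GENCODE M21 by identifier, with the same coordinates for 99.4%. Where an identifier was repeated (97 entries), 1 entry per gene was kept, which left 35542 genes. Genes without a read sit at the value of 0.9 read, from which library totals and whole reads were recovered.

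The filter on low values kept genes at the CPM of 10 reads in a library of median size in 3 or more libraries, with 15 reads or more in all. Genotype, sex and their interaction were tested with limma 3.58.1 (R 4.3.3) on the deposited values, with a mean-variance trend, two-sided, with Benjamini-Hochberg adjustment over all genes tested. The interaction fit has 2 residual degrees of freedom. P-values measure the spread between single embryos. On simulated data for 3 against 3 (14122 genes, 200 changed 2-fold), 90% of changed genes were recovered with 8 false calls, and 0 calls were made when none was changed. The simulation gave every gene the same SD of 0.095 on the log2 scale, independent of other genes, with no shift shared by a library. Its recovery of 2-fold changes does not extend to differences as small as those of the ribosomal protein genes.

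The genes, the lists, the naming rule and the tests were chosen with earlier results of these data known. Genes named were *Smchd1*, *Rpl38*, the 5 highest and 5 lowest levels, the 5 smallest p-values in each direction (3 for lower means), X-linked members, paralogue pairs, members mutated in Diamond-Blackfan anaemia or in mouse skeletal mutants, and the smallest p of each list and fit. *Rps4l*, of one pair, was not analysed here, and values of a few genes that this rule names are not reported here. Alternatives were other scalings, pseudocounts of 0.1 and 1 RPKM, other filters, autosomes alone, sex or replicate number in the fit, females alone, voom and each library left out. Sample quality weights in limma, the principal transcript length, and leaving out libraries for the interaction and for groups without overlap were added after seeing the data. Exact binomial and Poisson intervals (95%) and the limit of 3 reads cover counting error only. Analyses used Python 3.11.15 with pandas 2.3.3 and scipy 1.17.1.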

Additional observations from a re-analysis of the deposited data

Results flagged for a closer look

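By the interaction test in limma at an adjusted p under 0.05, the difference between genotypes was unequal in the male pair and in females for 35 of 14122 genes. It was more positive in the male pair for 28 and more negative for 7, and 0 of the 35 were ribosomal protein genes. Each genotype had 1 male, so the spread in this test came from the females alone, and the count was 2 to 617 when single females were left out.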

How the results depend on the processing

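No ribosomal protein gene passed the genotype test or the sex test under any alternative run. The median log2 fold change of these genes kept its sign, with 0.0099 to 0.098 when each library was left out in turn, 0.023 after quantile normalization and 0.11 in females alone. The number with a higher mean in MommeD43 was 52 after quantile normalization and 49 to 76 over the libraries left out, the 49 without MommeD43 replicate 3. For *Rpl38* the log2 fold change was 0.028 to 0.11 over the libraries left out and 0.012 after quantile normalization. Over all genes, 11 passed the genotype test in females alone.

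The lower means of *Rpl15* and *Rps29* changed sign. *Rpl15* was at 0.025 in females alone and 0.015 with quality weights in limma, and at −0.055 to 0.016 over the libraries left out, positive without MommeD43 replicate 1 or 3. *Rps29* was at 0.0070 after quantile normalization, 0.073 in females alone, 0.022 with voom and 0.0022 with quality weights, and at −0.075 to 0.040 over the libraries left out, positive without WT replicate 1 or MommeD43 replicate 1 or 2. The cause was not tested.

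For sex, the count over all genes was 2 with quantile normalization, a pseudocount of 0.1, no filter or voom, 0 at 1 RPKM or more in all libraries or on autosomes, and 1 to 43 over the libraries left out. For the interaction it was 54 with a pseudocount of 1 and 122 with no filter, and over single females left out it was 2 to 617, with 0 to 5 ribosomal protein genes, the 5 without MommeD43 replicate 2. The 617 of 14122 genes and the 5 of 77 came from the same fit. It leaves MommeD43 replicate 3, where the ribosomal protein genes stood high, as the only MommeD43 female. The fits with a female left out have 1 residual degree of freedom among the samples, so no conclusion is drawn from these counts. Genes with every MommeD43 library above every WT library numbered 10 to 31 of 77, against 3.53 to 13.0% of all genes.

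Number 1 marks the 2 males, which share a mother by the labels, whereas numbers 2 and 3 mark nothing shared. Deviations of same-numbered embryos correlated at 0.016, 0.18 and −0.15 over all genes and at 0.23, −0.17 and −0.55 over the ribosomal protein genes, so the numbers were not taken to pair the samples as a whole. With the replicate block, 0 of 77 ribosomal protein genes and 0 of all genes passed, and the median log2 fold change of the ribosomal protein genes was 0.065. The sex test could not be fitted with a replicate block, as the number fixes the sex. Values with the principal transcript length were 9.36 for the median log2 level and 1.24 for the SD between genes. Depth limited only *Rpl3l*, *Rpl10l*, *Rpl39l* and *Rpl29*.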
